A study of Mus musculus with 30 samples.

Results

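Amino acid transporter genes were taken as all genes whose symbol belongs to the solute carrier families Slc1, Slc3, Slc6, Slc7, Slc36, Slc38 or Slc43. The rule found 61 genes among the 29555 genes of both RNA tables: 19 of Slc6, 15 of Slc7, 11 of Slc38, 7 of Slc1, 4 of Slc36, 3 of Slc43 and 2 of Slc3. Of the 61, 49 also had an ATAC-seq peak within 2 kb of an end of the gene in both peak tables, with 106 such peaks in the table of B6 EpiSCs and endoderm and 127 in the table of EpiSCs. Members without such a peak are kept here for their RNA.

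The study made definitive endoderm (DE) from mouse epiblast stem cells (EpiSCs), a pluripotent cell type that resembles the epiblast shortly before gastrulation, and measured poly(A) RNA by RNA-seq and open chromatin by ATAC-seq. EpiSCs of all strains were untreated cells at passage 5 to 10, grown on feeder cells with Fgf2, ActivinA and the Wnt inhibitor NVP-TNKS656 and lifted with collagenase. DE cells of B6 were given CHIR99201, a Wnt agonist, with ActivinA for 16 h and then ActivinA with the BMP inhibitor LDN193189 for 24 h, and CXCR4+ cells were isolated by magnetic sorting (MACS), with 46 h in all as a further label states. RNA was read in 5 EpiSC and 4 DE libraries of C57BL/6 (B6), 3 EpiSC libraries of PWK/PhJ (PWK, an inbred strain of wild origin), 3 of B6.129 F1 (a cross of B6 with 129) and 1 of DBA/2J (DBA), and ATAC-seq in 4 EpiSC and 4 DE libraries of B6, 2 EpiSC libraries of PWK and 1 of DBA. The labels number the libraries as biological replicates without saying whether they are separate lines or separate cultures, so p-values measure the spread between these libraries only.

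Amino acid transporters set which amino acids a cell can take up or exchange. Light chains of the Slc7 family reach the cell surface bound to a heavy chain of the Slc3 family, while cationic carriers of Slc7 and the sodium-coupled carriers of Slc1, Slc6 and Slc38 work without one. Transcription of several of these genes is driven by ATF4, the transcription factor of the amino acid response, when amino acids are short. Leucine and arginine, brought in by these carriers, activate the growth kinase mTOR at the lysosome.

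Facts that touch all results are few. Total RNA counts ran from 22829536 to 66563933 per library, with 59995667 and 66563933 in DE replicates 4 and 51 and at most 29947841 in every other RNA library. Total ATAC counts in peaks ran from 3751526 to 9571127. In DE, 11 of 11 definitive endoderm markers were called higher and their summed level was 8217 to 15470 CPM (counts per 1000000 counts, at the scaled library size) against 187 to 613 in B6 EpiSCs. Of 10 primed and general pluripotency markers, 6 were lower in DE, 3 higher and 1 not called. Their sum was 3450 to 4428 CPM in DE and 3520 to 5154 in B6 EpiSCs, so the ranges overlap. Visceral endoderm markers, of which 5 of 7 tested were higher, summed to 598 to 1327 CPM in DE against 43.4 to 114 in B6 EpiSCs. Of 10 feeder fibroblast markers, 9 were lower in DE; their sum was 65.4 to 243 CPM in DE and 68.3 to 2708 in B6 EpiSCs. EpiSC replicate 1 held the 68.3 CPM, which lies in the DE range. Of 3 tested neuroectoderm markers, 2 were lower in DE and 1 was not called. The neuroectoderm list summed to 6.10 to 19.7 CPM in DE and 362 to 795 in B6 EpiSCs. Of 4 tested mesoderm markers, 3 were lower and 1 higher. The mesoderm list summed to 37.7 to 67.1 CPM in DE and 117 to 558 in B6 EpiSCs. In bulk RNA, fewer cells of a type and less RNA per cell cannot be told apart.

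In DE, 8 members with lower RNA and 4 with higher RNA had a tested ATAC peak at a RefSeq start. The start regions of 4 of these members are shown as examples. Each is the 250 bases before a RefSeq start, 5′ to 3′ on the strand of the gene, from the RefSeq promoter table of assembly GRCm38.p6, which held an entry for 43 of the 61 members. Capitals mark matches, on either strand, to TGATGNAA, the core of the amino acid response element bound by ATF4 and its partners, and to TGACNNNGC, the core of the antioxidant response element.
Slc7a11, chr3:50443614-50443863, minus strand: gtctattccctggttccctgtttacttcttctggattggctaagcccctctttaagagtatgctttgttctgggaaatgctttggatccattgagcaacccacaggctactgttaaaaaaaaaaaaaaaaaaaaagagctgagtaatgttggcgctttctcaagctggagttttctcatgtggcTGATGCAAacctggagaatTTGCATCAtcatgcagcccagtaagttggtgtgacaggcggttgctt
Slc7a1, chr5:148399905-148400154, minus strand: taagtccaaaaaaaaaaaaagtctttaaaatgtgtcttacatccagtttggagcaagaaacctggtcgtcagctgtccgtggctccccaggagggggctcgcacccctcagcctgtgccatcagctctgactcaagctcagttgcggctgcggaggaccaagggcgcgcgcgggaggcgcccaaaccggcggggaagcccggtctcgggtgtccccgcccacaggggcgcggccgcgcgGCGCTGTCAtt
Slc38a6, chr12:73286598-73286847, plus strand: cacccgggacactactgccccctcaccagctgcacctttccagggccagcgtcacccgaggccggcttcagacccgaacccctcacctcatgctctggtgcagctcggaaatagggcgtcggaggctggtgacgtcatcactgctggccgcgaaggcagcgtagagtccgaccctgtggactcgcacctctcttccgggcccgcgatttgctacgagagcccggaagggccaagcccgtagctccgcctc
Slc7a8, chr14:54781887-54782136, minus strand: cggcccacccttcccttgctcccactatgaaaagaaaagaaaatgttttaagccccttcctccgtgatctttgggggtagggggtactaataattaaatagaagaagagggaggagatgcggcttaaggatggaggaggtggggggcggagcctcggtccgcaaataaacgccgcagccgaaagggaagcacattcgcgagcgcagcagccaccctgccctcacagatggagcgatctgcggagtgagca

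The Slc7a11 start region held TGATGNAA at 2 places, facing each other, beginning 66 bases before the start on the strand of the gene and 47 bases before it on the other strand. Across all 32851 RefSeq promoters, 3.45% held this motif in the same 250 bases. Of the 64 promoters of members 4 did, belonging to Slc7a11, Slc7a7 and Slc6a21. Slc7a1 held TGACNNNGC on the other strand, beginning 11 bases before the start. Of all promoters 10.2% held it, and 9 of the 64 promoters of members, which belong to 8 of the 43 members. Neither motif is in the windows of Slc38a6 and Slc7a8. A match says only that these letters are present.

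When B6 DE was set against B6 EpiSCs, to see what changes on the way to endoderm, 3 of 4 tested cationic carriers were lower in DE, as were 3 of 5 tested light chains with 1 higher, while 3 of 9 tested Slc38 carriers were higher and 1 lower, and 3 of 8 tested Slc6 carriers were higher and 3 lower. Of the 61 members, 36 passed the filter on low counts and 25 did not, each of these 25 being under 1 CPM in every B6 library. Of the 36, 7 were called higher, 15 lower and 14 neither by the quasi-likelihood test of edgeR, a gene being called when its p, adjusted by Benjamini-Hochberg over 14085 genes, was under 0.05. The background share is high: 62% of all genes tested were called, 31.5% higher and 30.6% lower, so the 61.1% of members called is near it. The median log2 change was -0.51 over the 36 members and -0.01 over all genes tested. Groups did not overlap for 21 of the 36, against 55.6% of all genes. A gene present in a single state passes the filter through that state, so these counts describe the members and support nothing further. Called with at least a 2-fold change were 5 members higher and 14 lower. The share of all genes at this 2-fold rule is not given here, so this count too describes the members only.

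**Figure D1:**
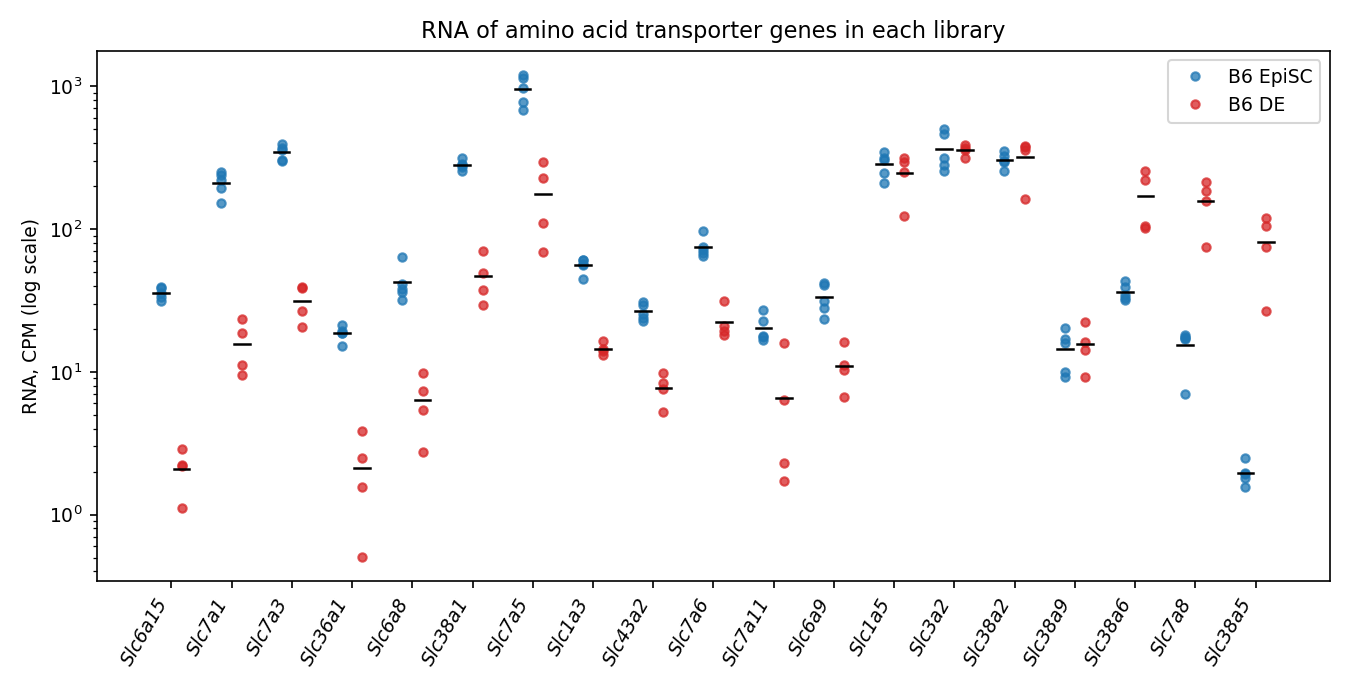
RNA of 19 amino acid transporter genes in each library of B6 EpiSCs (5 libraries) and B6 DE (4 libraries), in CPM on a log axis, ordered by log2 change, with a black line at each group's mean. From Slc6a15 to Slc6a9 every DE library lies below every EpiSC library, from Slc1a5 to Slc38a9 the groups overlap, and for Slc38a6, Slc7a8 and Slc38a5 every DE library lies above.

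The cationic carriers, which bring in arginine, lysine and ornithine, fell the most as a role: 3 of 4 tested members were lower. Slc7a1 (ENSMUSG00000041313, chr5:148327410-148399904), the widely expressed arginine carrier CAT-1, had 220, 195, 251, 239 and 151 CPM in EpiSC replicates 1, 2, 4, 44 and 51 and 9.51, 18.6, 11.1 and 23.5 CPM in DE replicates 2, 4, 44 and 51. Every DE library lay below every EpiSC library, and the level was 13.4-fold lower (log2 change -3.75, SE 0.31, edgeR adjusted p 4.89e-06). Slc7a3 (ENSMUSG00000031297, chrX:101079146-101090452), the related carrier CAT-3, had 360, 368, 299, 305 and 391 CPM in the same EpiSC libraries and 26.8, 38.8, 20.7 and 39.0 CPM in the DE libraries. It was also lower in every DE library (log2 change -3.46, SE 0.22, edgeR adjusted p 1.31e-06). Slc7a14, a lysosomal relative, was lower at low levels (log2 change -1.11), and Slc7a2, which encodes CAT-2 on chromosome 8, was not called. Slc7a2 had 2.03, 4.89, 2.07 and 11.4 CPM in DE against 6.10 to 11.3 in EpiSCs, and without DE replicate 51 its log2 change was -1.43 and called (edgeR adjusted p 0.0133). The fifth cationic carrier by role, Slc7a4, was not tested.

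Among light chains the members split. Slc7a5 (ENSMUSG00000040010, chr8:121881146-121907686), the leucine and large neutral amino acid exchanger LAT1, had 964, 779, 1201, 1145 and 678 CPM in EpiSCs and 69.5, 227, 111 and 293 CPM in DE, in the same order of replicates. All DE libraries were below all EpiSC libraries (5.44-fold lower, log2 change -2.44, SE 0.40, edgeR adjusted p 0.000439). The related y+LAT2 light chain Slc7a6 (ENSMUSG00000031904, chr8:106168219-106198714), an exchanger of cationic for neutral amino acids, fell from 75.3 CPM ± 12.8 (SD, n = 5) to 22.4 CPM ± 6.01 (SD, n = 4), 3.35-fold. DE replicate 51 was the highest DE library for both genes. Without it, Slc7a5 (log2 change -2.81) and Slc7a6 (-1.95) were still called.

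Slc7a8 (ENSMUSG00000022180, chr14:54722215-54781886), the LAT2 light chain for small and large neutral amino acids, moved the other way. Its RNA was 17.6, 17.3, 17.0, 18.2 and 6.95 CPM in EpiSCs and 75.3, 184, 214 and 156 CPM in DE. Every DE library lay above every EpiSC library, and the change was 10.2-fold higher (log2 change 3.35, SE 0.35, edgeR adjusted p 2.25e-05). EpiSC replicate 51, with the most feeder RNA, was the lowest library.

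The heavy chain they share, Slc3a2 (ENSMUSG00000010095, chr19:8706882-8723369), which encodes CD98, was not called. It had 255, 316, 501, 463 and 280 CPM in EpiSCs and 359, 316, 372 and 386 CPM in DE, with overlapping groups and a log2 change of -0.02 (edgeR: SE 0.21, adjusted p 0.948). The other heavy chain, Slc3a1, was not tested. Slc7a11 (ENSMUSG00000027737, chr3:50364936-50499087), the cystine-glutamate exchanger xCT that feeds glutathione synthesis, had 16.7, 22.6, 17.4, 17.9 and 26.9 CPM in EpiSCs and 15.8, 2.29, 6.38 and 1.73 CPM in DE. Its log2 change of -1.65 (SE 0.58) was called at an edgeR adjusted p of 0.0303, and DE replicate 2 lay just under the lowest EpiSC library. Without it the log2 change was -2.56, and leaving out DE replicate 4, 44 or 51 or EpiSC replicate 2 or 51 gave adjusted p-values of 0.0523 to 0.0668.

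The sodium-coupled neutral carriers of Slc38 held the largest rise, a large fall and 5 members that were not called. Slc38a5 (ENSMUSG00000031170, chrX:8271381-8280179), the glutamine, histidine and serine carrier SNAT5, had 2.50, 1.94, 1.55, 1.91 and 1.81 CPM in EpiSCs and 105, 74.8, 119 and 26.7 CPM in DE. It rose 41.8-fold (log2 change 5.39, SE 0.41, edgeR adjusted p 3.30e-06), and the DE libraries differed among themselves more than the EpiSCs did. Slc38a6 (ENSMUSG00000044712, chr12:73286739-73361998), a carrier of the same family, had 43.2, 33.1, 38.9, 31.7 and 34.3 CPM in EpiSCs and 102, 220, 106 and 254 CPM in DE, 4.70-fold higher (log2 change 2.23, SE 0.28, edgeR adjusted p 7.46e-05).

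Slc38a1 (ENSMUSG00000023169, chr15:96571418-96643438), the glutamine carrier SNAT1, fell instead. It had 273, 316, 255, 279 and 283 CPM in EpiSCs and 29.1, 49.1, 37.7 and 70.2 CPM in DE, 6.03-fold lower (log2 change -2.59, SE 0.24, edgeR adjusted p 1.11e-05). Its neighbour on chromosome 15, Slc38a2 (ENSMUSG00000022462, chr15:96687392-96699728), which encodes SNAT2, the system A carrier induced when amino acids are short, was not called: 327, 350, 257, 299 and 296 CPM in EpiSCs against 162, 376, 379 and 355 CPM in DE. Its groups overlapped, with a log2 change of 0.06 (SE 0.23), and with scaling by total library size of -0.01. Slc38a9 (ENSMUSG00000047789, chr13:112656189-112738752), the lysosomal arginine sensor of mTOR, was not called either, at 9.13 to 20.1 CPM in EpiSCs and 9.27 to 22.4 CPM in DE. Slc38a10 rose by a log2 change of 0.59 (groups apart).

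Slc38a4 (ENSMUSG00000022464, chr15:96994816-97055956), the SNAT4 gene of the same cluster, which is imprinted in mice, was chosen after its values were seen. It had 16.8, 27.4, 46.1, 46.2 and 32.4 CPM in EpiSCs and 45.7, 69.0 and 51.5 CPM in DE replicates 4, 44 and 51, yet 0 counts in DE replicate 2. A count of 0 in that library allows up to 0.153 CPM (3 counts). All other B6 libraries were far above that limit, and the comparison was not called (log2 change 0.30, SE 0.94).

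Of the 8 tested Slc6 carriers, 3 were higher and 3 lower. Slc6a15 (ENSMUSG00000019894, chr10:103367808-103419379), the neutral amino acid carrier B0AT2 best known from the nervous system, showed the largest fall of all members: 39.4, 35.6, 31.3, 33.5 and 38.7 CPM in EpiSCs and 1.12, 2.17, 2.23 and 2.88 CPM in DE (16.8-fold lower, log2 change -4.07, SE 0.27, edgeR adjusted p 1.66e-06). Slc6a8 (ENSMUSG00000019558, chrX:73673133-73682502), the creatine carrier, had 31.6, 41.4, 36.5, 37.97 and 63.8 CPM in EpiSCs and 7.38, 5.44, 2.74 and 9.77 CPM in DE, 6.65-fold lower. The glycine carrier GlyT1, Slc6a9 (ENSMUSG00000028542, chr4:117835258-117869305), fell from 33.2 CPM ± 8.07 (SD, n = 5) to 11.04 CPM ± 3.90 (SD, n = 4). None of these groups overlapped.

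On the rising side of Slc6, 2 members with low RNA were named after their values were seen. Slc6a4 (ENSMUSG00000020838, chr11:76998597-77032343), the serotonin carrier, had 0.0370 to 0.397 CPM in EpiSCs, which is 1 to 11 counts, and 6.21, 8.39, 7.74 and 4.16 CPM in DE (log2 change 5.23, SE 0.59). Slc6a13 (ENSMUSG00000030108, chr6:121300288-121337721), the GABA and taurine carrier GAT2, had 0.777 to 1.56 CPM in EpiSCs and 9.92, 6.10, 9.90 and 2.91 CPM in DE, 6.24-fold higher. Slc6a6, the taurine carrier, rose by a smaller step, with 120 to 156 CPM in EpiSCs and 159 to 236 CPM in DE (log2 change 0.57, SE 0.15, edgeR adjusted p 0.0069).

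Falls were also found among the proton-coupled, glutamate, Slc43 and ASCT carriers. Slc36a1 (ENSMUSG00000020261, chr11:55204322-55236330), the proton-coupled carrier PAT1 found on lysosomes and the cell surface, had 21.4, 15.2, 19.2, 18.7 and 18.8 CPM in EpiSCs and 2.49, 3.85, 0.508 and 1.56 CPM in DE, 8.81-fold lower. Slc1a3 (ENSMUSG00000005360, chr15:8634124-8710807), the glutamate and aspartate carrier GLAST, fell from 55.6 CPM ± 6.66 (SD, n = 5) to 14.5 CPM ± 1.40 (SD, n = 4), with no overlap. Slc43a2 (ENSMUSG00000038178, chr11:75529915-75577575), the LAT4 carrier of large neutral amino acids, fell from 26.5 CPM ± 3.61 (SD, n = 5) to 7.72 CPM ± 1.93 (SD, n = 4). Slc1a4 (ENSMUSG00000020142, chr11:20302180-20332713), the serine and alanine exchanger ASCT1, fell by a log2 change of -0.80 (edgeR: SE 0.24, adjusted p 0.0129) with overlapping groups. Slc1a2, the glial glutamate carrier GLT-1, was called lower while under 1 CPM in every library. The other member of the ASCT role, Slc1a5 (ENSMUSG00000001918, chr7:16781334-16798274), the glutamine exchanger ASCT2, was not called, at 306, 210, 312, 347 and 248 CPM in EpiSCs and 123, 296, 316 and 252 CPM in DE.

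**Figure D2:**
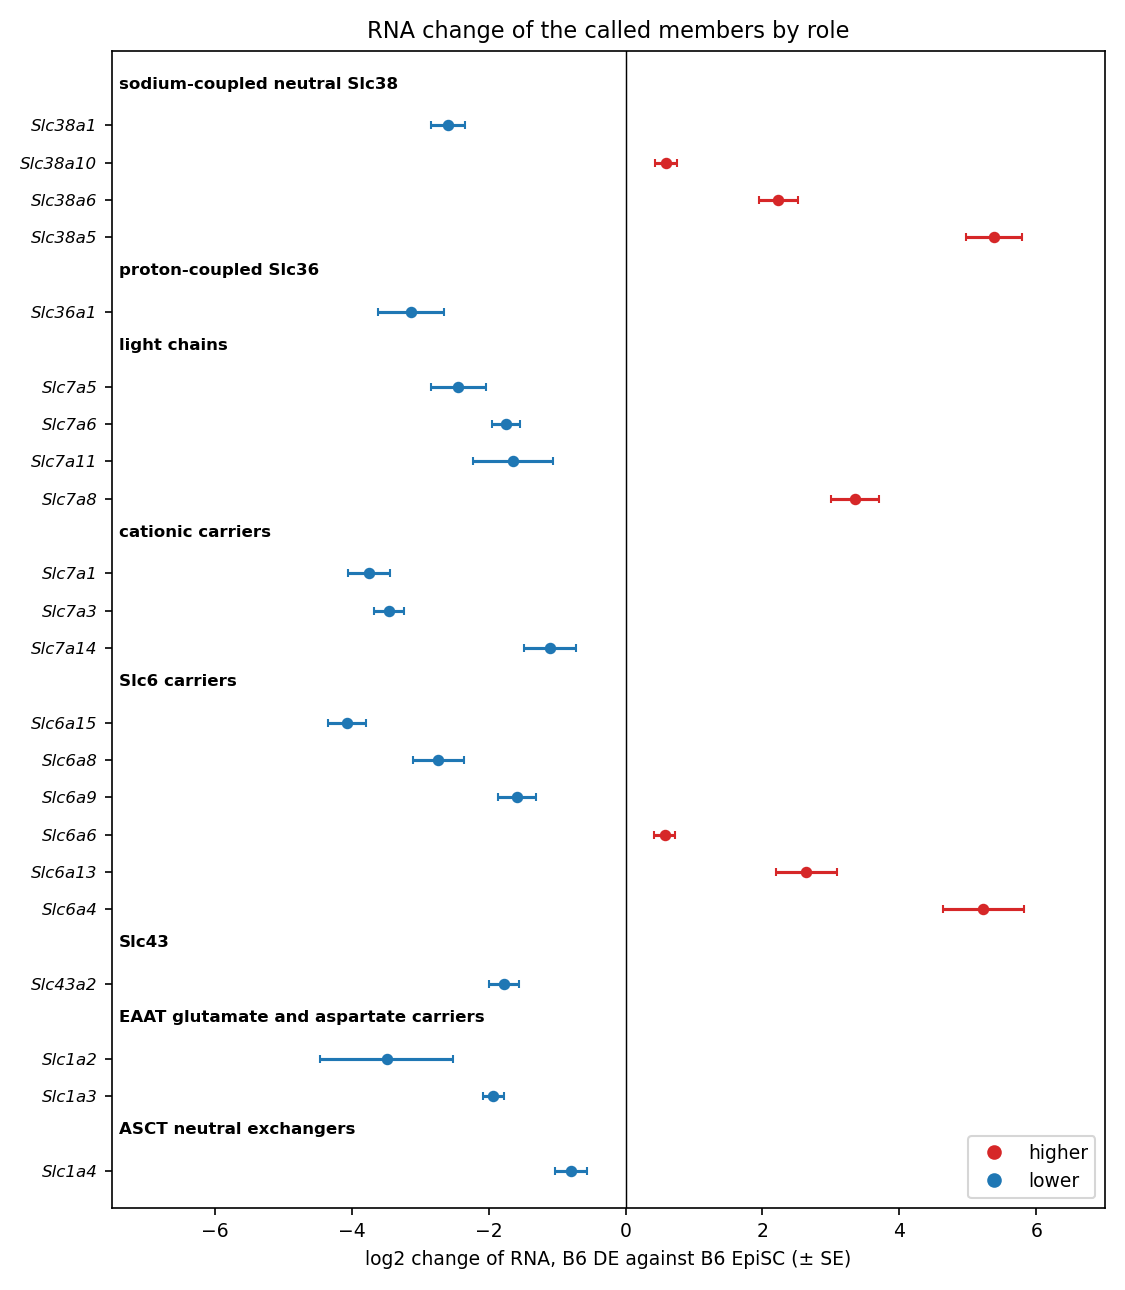
The log2 change of RNA in B6 DE against B6 EpiSCs with its SE for the called members, grouped by role and coloured by call (7 higher in red, 15 lower in blue). The called cationic carriers and light chains lie left of 0 apart from Slc7a8, while the called Slc38 carriers range from -2.59 for Slc38a1 to 5.39 for Slc38a5.

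Values were checked within each depth of the DE libraries, since replicates 4 and 51 were sequenced more deeply and no EpiSC library was. With the shallower pair alone (replicates 2 and 44), 6 members were higher and 15 lower, against 4106 and 4386 of all 14867 genes. With the deeper pair alone, 8 were higher and 15 lower, against 4329 and 4429 of all 14850 genes. The shallower pair kept 6 of the 7 higher and 13 of the 15 lower calls, and the deeper pair 7 of 7 and 13 of 15. Sizes differed: Slc7a5 had a log2 change of -3.43 in the shallower pair and -1.88 in the deeper, Slc7a1 -4.39 and -3.33, Slc7a3 -3.90 and -3.15, Slc38a1 -3.11 and -2.24, Slc36a1 -3.71 and -2.79, Slc6a8 -3.12 and -2.47 and Slc6a15 -4.43 and -3.82. Among the members that rose, Slc38a6 had 1.48 and 2.71 and Slc38a5 5.81 and 4.70. Slc7a11 ran the other way, with -0.93 (not called) and -3.34. Slc1a4 was not called in the deeper pair (-0.49) nor Slc6a6 in the shallower (0.37). For the deeper pair, depth and group cannot be told apart. With 2 DE libraries in each pair, depth and the spread between libraries cannot be told apart either. Feeder markers were lower in DE too, and their part in the changes was not tested. EpiSC replicate 1 had a feeder sum in the DE range. It lay outside the DE range for the 21 members whose groups did not overlap, which that choice of members fixes in advance.

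Genes of the amino acid response outside the transporter families were lower in DE: of 25 listed genes, ATF4 and its targets, 21 were called lower, 1 higher and 3 not, with a median log2 change of -1.24. Atf4 itself fell from 525 CPM ± 48.4 (SD, n = 5) to 222 CPM ± 58.8 (SD, n = 4). Targets of serine and proline synthesis went with it, Psat1 by -2.47 and Aldh18a1 by -1.14 on the log2 scale, as did Chac1, which degrades glutathione, by -2.76. Asns, asparagine synthetase, changed by -0.73, and the member higher in DE was Ppp1r15a (0.71), a phosphatase subunit that ends the response. Among 19 cytosolic aminoacyl-tRNA synthetases 6 were lower, 2 higher and 11 not called. Of all genes tested, 30.6% were lower and 31.5% higher.

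Of 18 tested genes that sense amino acids at the lysosome, 8 were higher and 7 lower, against 31.5% and 30.6% of all genes tested. The kinase Mtor (-1.99) and its partner Rptor (-1.40) were lower, while the mTOR activator Rheb (1.32) and the GTPase Rragc (0.89) were higher, as were the Ragulator subunits Lamtor1 and Lamtor3. Among 7 tested genes of glutathione synthesis and use, downstream of Slc7a11, both subunits of the limiting enzyme of synthesis were lower. Gclc changed by -1.03 and Gclm by -0.84. Gss, Gsr and Gpx4 were higher, with 2 of the 7 genes not called. Of 17 tested genes listed as amino acid carriers outside the symbol rule, 7 were higher and 3 lower, a share near the 62% of all genes called. Slc16a10, the aromatic amino acid carrier TAT1, was the largest fall of these (-3.34). The largest rise of those with more than 1 CPM (3.25) was Slc17a9, a vesicular carrier known for nucleotides rather than amino acids.

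Peaks close to the ends of the members were called about as often as those near any gene. Of the 106 peaks within 2 kb of an end of a member, 94 were tested, 15 were called higher in DE, 14 lower and 65 not, which is 30.9% called against 35.1% of all tested peaks within 2 kb of an end of any gene (17.7% higher, 17.4% lower) and 57.6% of all peaks. In wider windows the share called was larger: 48.4% of 273 tested peaks in a member or within 2 kb of it, and 44.1% of 245 within 10 kb of an end. With scaling by total library size, which shifted the median log2 change of all peaks to -0.22, the lower count was 24. Of all 113870 peaks, 36674 were lower with this scaling. Peaks were also read on the start windows of the RefSeq table, 250 bases before to 50 after each start, which need not lie at an end of the gene. Of 25 tested peaks on a start window of a member, 2 were called higher and 4 lower, 24% against 26.9% of all tested peaks in such windows.

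Most start-site peaks were not called whatever the RNA did, taking for each member the tested start-window peak with the highest mean level. Of the 15 members with lower RNA, 8 had a tested start-site peak, which was called lower for Slc7a11 and Slc7a14 and not called for 6. Of the 7 with higher RNA, 4 had such a peak, called higher for Slc38a10 alone. The start-site peak of Slc7a1 (chr5:148399664-148400000), which overlaps the start region printed above, had a log2 change of 0.02 (SE 0.28) beside an RNA change of -3.75. That of Slc36a1 changed by -0.07 (SE 0.23) beside -3.14 in RNA, and that of Slc38a6 (chr12:73286645-73287109) by -0.18 (SE 0.15) beside 2.23. Of the 14 members whose RNA was not called, 8 had a tested start-site peak. None of these peaks was called by edgeR's test, though a further, weaker window peak of Slc43a1 (chr2:84839997-84840185) was lower (-1.03).

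**Figure D3:**
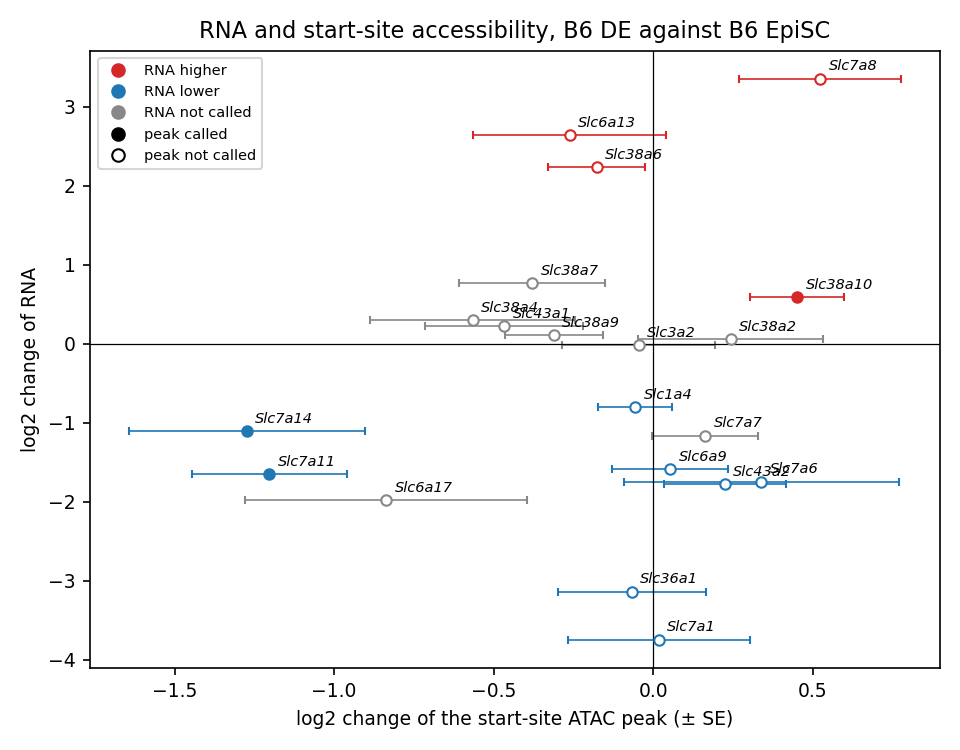
For the 20 members with tested RNA and a tested start-site peak, the log2 change of the peak (horizontal, with its SE) and of the RNA (vertical) in B6 DE against B6 EpiSCs; filled points are called peaks and colour gives the RNA call. Most points stand close to 0 on the peak axis whatever their RNA change, and only Slc7a11, Slc7a14 and Slc38a10 carry a called peak.

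The Slc7a11 peak (chr3:50443515-50443884), which covers the facing TGATGNAA matches, had 20.8, 17.7, 16.6 and 21.7 CPM in EpiSC replicates 1, 4, 44 and 51 and 10.3, 9.71, 8.44 and 4.32 CPM in DE replicates 2, 4, 44 and 51. All DE libraries were lower (log2 change -1.20, SE 0.24, edgeR adjusted p 0.000227). At Slc7a8 the start-site peak, on the region printed above, was not called (0.52, SE 0.25, edgeR adjusted p 0.0833), while another peak inside the gene, centred 702 bp downstream of the start (chr14:54781089-54781279), had 6.08, 5.81, 8.16 and 4.03 CPM in EpiSCs and 20.0, 12.7, 18.3 and 8.94 CPM in DE (log2 change 1.35, SE 0.29). It was higher in every DE library.

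The largest loss near a member was upstream of Slc1a4 (chr11:20334413-20334607, centred at -1797 bp from the start): 28.8, 26.1, 26.3 and 35.3 CPM in EpiSCs and 2.88, 1.81, 1.72 and 1.15 CPM in DE. The log2 change was -3.91 (SE 0.26, edgeR adjusted p 5.26e-10), while the start-site peak of the gene was not called (-0.06). At Slc38a1, 2 peaks within 2 kb of its higher-coordinate end were lower, chr15:96641545-96641727 by -1.10 and chr15:96643149-96643303 by -2.05, and 1 was not called. Peaks near the lower-coordinate ends of Slc38a2 (chr15:96687088-96687171, -2.82) and Slc3a2 (chr19:8706253-8706403, -2.29) were also lower, though the RNA of neither gene was called.

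Other peaks rose where the RNA fell. The peak in Slc7a5, 850 bp inside its lower-coordinate end (chr8:121881996-121882240), had 0.960, 1.30, 1.28 and 0.620 CPM in EpiSCs and 5.97, 7.57, 5.87 and 17.3 CPM in DE. Its log2 change was 3.08 (SE 0.44), with DE replicate 51 the highest, as for the RNA of this gene. A peak 1857 bp past the end of Slc6a9 (chr4:117871162-117871474) rose by 2.40, and one near the end of Slc38a6 (chr12:73360991-73361378), whose RNA also rose, by 2.75. Peaks were joined to genes by distance alone, and whether they act on these genes was not tested. No peak within 2 kb of an end was listed for Slc7a3 or Slc38a5 in the table of B6 EpiSCs and DE.

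**Figure D4:**
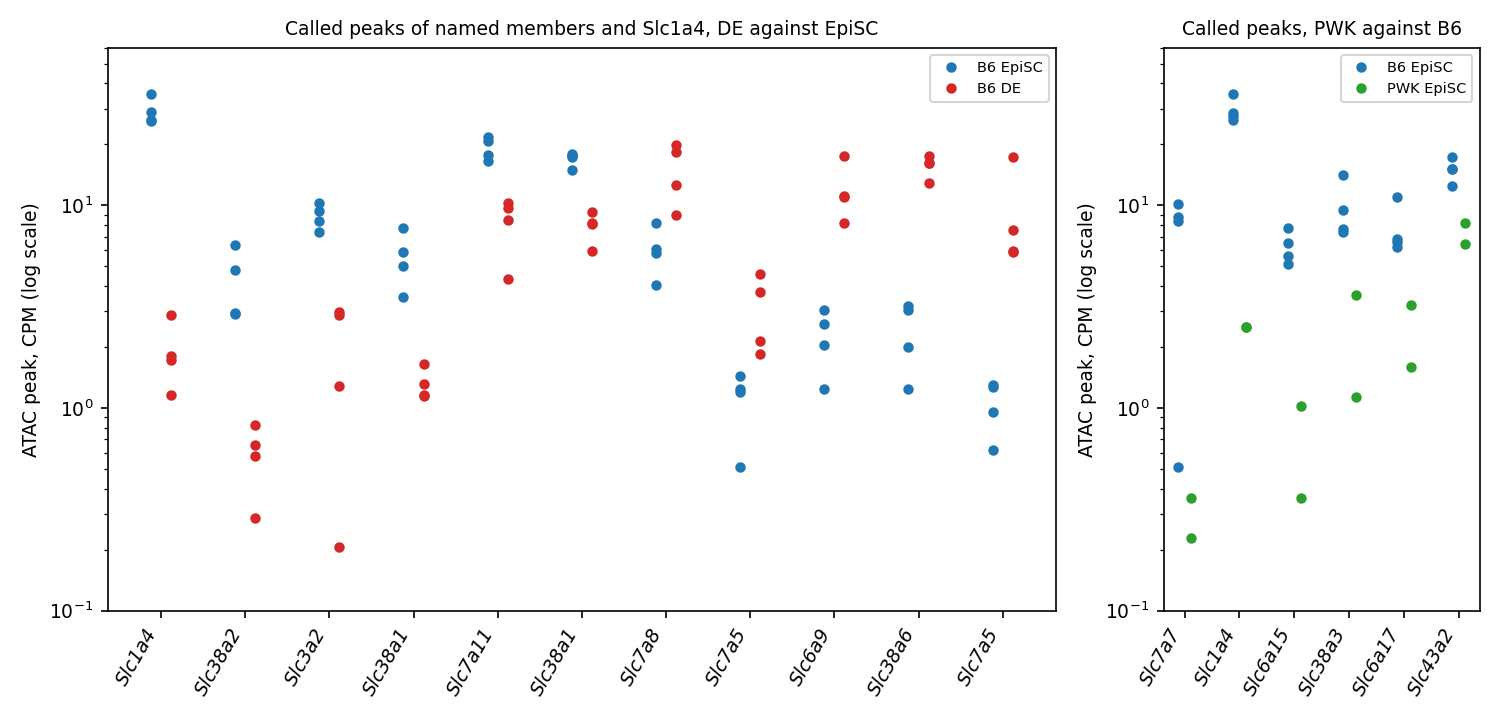
Left, ATAC peaks called in B6 DE against B6 EpiSCs near the named members and Slc1a4, and right, the 6 peaks called in PWK against B6 EpiSCs near any member; points are libraries, in CPM on a log axis, ordered by log2 change. The Slc1a4 peak stands at 26.1 to 35.3 CPM in B6 EpiSCs and at 1.15 to 2.88 CPM in DE, and is also low in both PWK libraries.

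The strain comparisons ask how EpiSCs of other backgrounds differ from B6; they share the 5 B6 EpiSC libraries, and their lists are therefore not set against each other. In PWK EpiSCs, 39 members were tested, 4 were called higher and 13 lower, with 22 not called. This is 43.6% of the members, against 26.5% of the 14822 genes tested (12% higher, 14.5% lower). Groups did not overlap for 17 members, against 32.1% of all genes, and the median log2 change was -0.17 over members and -0.01 over all genes. Without PWK BioRep695, 8 members were lower, against 1317 of all 15065 genes. At 2-fold or more, 2 members were higher and 4 lower, and the share of all genes at this rule is not given here. Feeder markers summed to 2220 to 3101 CPM in PWK and 71.1 to 2812 in B6, none of the 10 was called, and their part was not tested. B6 replicate 51, with 2812 CPM, lies in the PWK range of feeder markers. Neuroectoderm markers summed to 289 to 305 CPM in PWK and 377 to 809 in B6. Of 5 tested, 2 were lower and 3 not called, and their part was not tested. None of 4 tested mesoderm markers was called.

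Slc6a15 was the most different member: 41.2, 37.1, 31.9, 34.8 and 40.3 CPM in B6 replicates 1, 2, 4, 44 and 51 and 8.00, 5.42 and 5.91 CPM in PWK libraries BioRep698, BioRep695 and the unnumbered one. Every PWK library was lower (log2 change -2.52, SE 0.16, edgeR adjusted p 1.64e-06). A peak 83 bp outside its end (chr10:103367577-103367725) was lower in PWK as well, with 6.52, 5.64, 5.13 and 7.74 CPM in B6 and 0.360 and 1.02 CPM in PWK (log2 change -3.06). Of the 3 peaks listed within 2 kb of an end of Slc6a15, this was the only 1 called.

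Slc7a1, Slc7a5 and Slc3a2 were also lower in PWK. As roles, 2 of 5 tested cationic carriers were higher and 2 lower, and 1 of 5 tested light chains was lower. Slc7a1 had 157 to 256 CPM in B6 and 96.0, 84.6 and 93.8 CPM in PWK (log2 change -1.26, SE 0.15, edgeR adjusted p 0.000164). Slc7a5 had 706 to 1223 CPM in B6 and 498, 511 and 566 CPM in PWK (-0.91, SE 0.18), and its heavy chain Slc3a2 266 to 510 CPM and 188, 211 and 237 CPM (-0.82, SE 0.21). In both genes all PWK libraries were below all B6 libraries. The call on Slc3a2 was lost without PWK BioRep698 or BioRep695 (edgeR adjusted p 0.0750 and 0.0600). Slc38a3, the glutamine carrier SNAT3, was lower (6.16 CPM ± 0.415 (SD, n = 3) against 15.3 CPM ± 5.03 (SD, n = 5)), and so was Slc6a14, a broad neutral and cationic carrier, at levels under 0.5 CPM; the call on Slc6a14 was lost without any 1 PWK library or B6 replicate 44.

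Further members lower in PWK were Slc1a4, Slc1a5, Slc7a3, Slc43a1, Slc38a1, Slc6a9 and Slc38a10, by log2 changes from -0.28 for Slc38a1 to -0.75 for Slc1a4, with overlapping groups for Slc6a9 and Slc38a10. Slc43a1, the LAT3 carrier, had narrow groups, 25.7 CPM ± 1.17 (SD, n = 5) in B6 and 15.4 CPM ± 0.900 (SD, n = 3) in PWK. Higher in PWK were Slc38a5 (5.58 CPM ± 0.548 (SD, n = 3) against 2.02 CPM ± 0.375 (SD, n = 5), log2 change 1.47), Slc7a2 (18.1 CPM ± 1.24 (SD, n = 3) against 8.46 CPM ± 2.18 (SD, n = 5), 1.09), Slc7a14 (0.70) and the lysosomal proline and tryptophan carrier Slc36a4 (0.45). Slc38a2, Slc38a6, Slc7a8 and Slc36a1 were not called, with log2 changes between -0.07 and 0.11.

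Of the 25 amino acid response genes, 16 were lower in PWK, 0 higher and 9 not called, with a median log2 change of -0.67. Phgdh, the entry enzyme of serine synthesis, had the largest fall (-1.55), followed by Chac1 (-1.39) and Atf3 (-1.31), and Atf4 changed by -0.48. Of the synthetases 9 of 19 were lower and 0 higher. Among all genes tested, 14.5% were lower and 12% higher in PWK.

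Near members, 112 of 127 peaks were tested between PWK and B6, and 6 were lower and 0 higher in edgeR's test. That is 5.36%, against 3.22% of all tested peaks within 2 kb of a gene end (0.954% higher, 2.27% lower). Of all peaks, 5.11% were called, 1.42% higher and 3.68% lower. The only build named is mm10, and the part of PWK sequence differences from it in the RNA and peak counts was not tested. At an unadjusted p under 0.05 there were 18 peaks near members, against 23248 of all 137667 peaks. The DESeq2 Wald test called 7 lower and 0 higher, against 5935 lower and 2115 higher of all 175721 peaks. None of the 27 tested start-window peaks was called, against 2.71% of all such peaks. Among the 6, the upstream Slc1a4 peak had 28.6, 27.8, 26.4 and 35.4 CPM in B6 and 2.52 and 2.50 CPM in PWK (log2 change -3.55), the others lying near Slc6a15, Slc38a3, Slc43a2, Slc6a17 and Slc7a7. The call count was 3 without B6 replicate 1 or 4, against 2823 and 2628 lower of all 132988 and 132252 peaks. Fits that leave a lone PWK library are given no count. At Slc7a7, B6 replicate 44 had 0.513 CPM, close to PWK, and the other B6 libraries 8.40 to 10.2.

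In B6.129 F1 EpiSCs none of the 39 tested members was called by edgeR's quasi-likelihood test, against 2.84% of all genes (1.34% higher, 1.5% lower). At an unadjusted p under 0.05 there were 14, against 3614 of all 14822 genes. The DESeq2 Wald test called 8 higher and 2 lower, against 878 higher and 1150 lower of all 20606 genes. Groups did not overlap for 12 members, against 14.5% of all genes. The smallest adjusted p was that of Slc1a3, with 84.0, 75.8 and 75.6 CPM in the F1 libraries and 45.3 to 63.6 in B6 (log2 change 0.44). Slc7a6 had 105 CPM ± 3.49 (SD, n = 3) against 78.1 CPM ± 13.5 (SD, n = 5). Slc38a9 had 28.1 CPM ± 1.98 (SD, n = 3) against 15.0 CPM ± 4.93 (SD, n = 5). Without B6 replicate 1, 7 members were called higher and 1 lower, against 1001 higher and 951 lower of all 14748 genes. Without B6 replicate 2, 2 members were higher, against 356 of all 14785 genes. Feeder markers summed to 146 to 225 CPM in the F1 libraries.

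**Figure D5:**
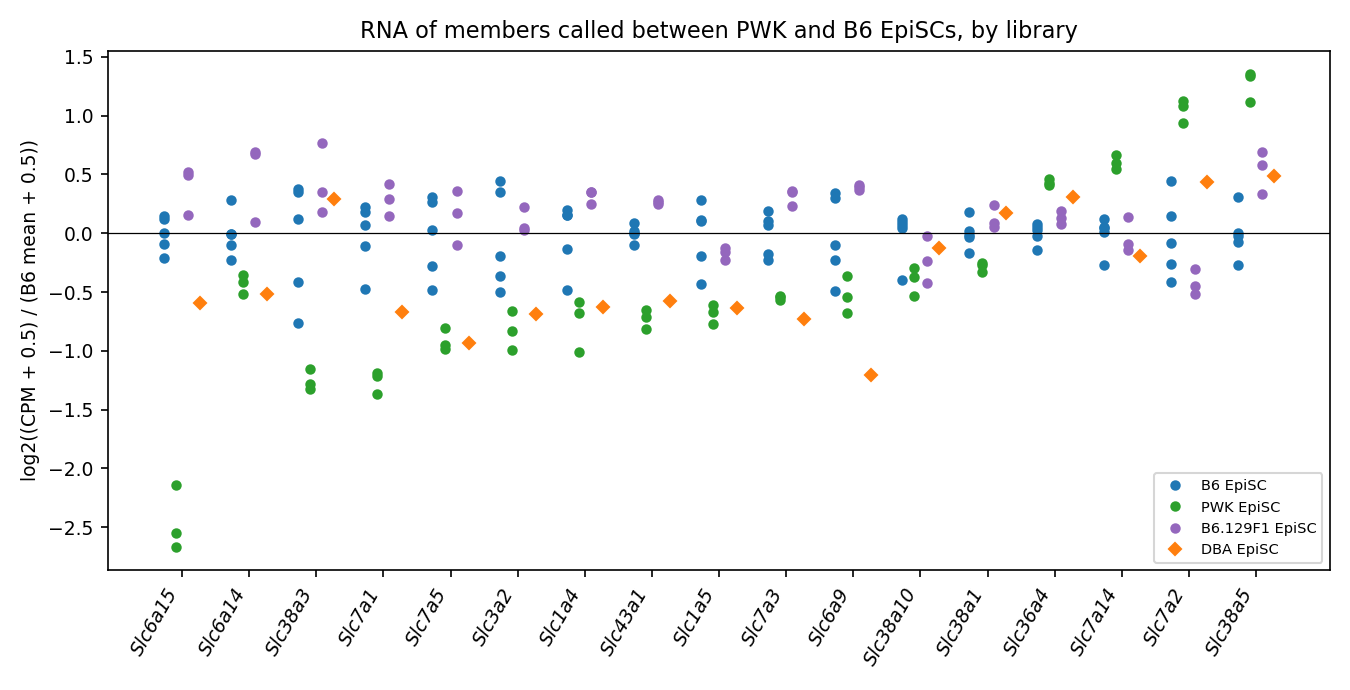
For the members called between PWK and B6 EpiSCs, each library's log2 ratio to the B6 mean (0.5 CPM added to both), for B6, PWK and B6.129F1 EpiSCs and the single DBA library (diamonds). PWK points lie farthest below 0 for Slc6a15 and above 0 for Slc38a5, Slc7a2, Slc7a14 and Slc36a4.

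The DBA library had no replicate, so no test was run. Of 33 members with a mean of at least 1 CPM, 1 was past 2-fold higher and 2 were past 2-fold lower. The lower ones were Slc6a9 (14.6 CPM against 24.3 to 43.5 in B6) and Slc7a7 (0.680 CPM against 0.357 to 3.93). Of all genes, 2.55% were past 2-fold higher and 3.98% lower, together 6.53%. Outside the B6 range lay 16 of the 33, against 41.5% of all genes, among them Slc7a5 at 516 CPM, Slc3a2 at 232 CPM, Slc7a1 at 137 CPM and Slc7a3 at 214 CPM, each below every B6 library, and Slc38a4 at 66.5 CPM, above. Of 114 nearby peaks, 8 were past 2-fold higher and 7 lower, against 3.55% and 14.2% of all peaks (17.7% together), and 53 lay outside the B6 range, against 47.7% of all peaks. The higher peaks include 1 at Slc38a4 (chr15:97055873-97056138), with 18.8 CPM against 5.35 to 13.5 in B6.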

How the data were processed

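Raw counts per gene and per ATAC peak were taken as deposited by the authors. The submitters' processing notes name Salmon, featureCounts and DESeq2 for RNA, fastp, Bowtie2, MACS2, featureCounts and DESeq2 for ATAC-seq, and the build mm10, with no role or order; whether counting used strand is not given in the sources used here. Of 30 samples, 27 had a column; 3 PWK DE samples were not analysed here, and 17 further columns of other samples were not used. Each comparison was fitted on its whole table with edgeR 4.0.16 in R 4.3.3 (TMM scaling, filterByExpr, robust quasi-likelihood test), with p-values adjusted by the Benjamini-Hochberg method over all genes or peaks tested and called under 0.05. PWK and B6.129 F1 shared 1 fit with B6. DBA, with 1 library per assay, was set against the B6 mean with 0.5 CPM added and no test. CPM are counts per 1000000 at the scaled library size. Intervals and limits for counts of 0 cover counting error only.

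The members and gene lists were chosen with earlier results of these data known. Values per library are given for members called in DE with a log2 change of at least 1 and a mean log2 CPM of at least 3 (at most 12 per direction), for a fixed list of 11 uptake genes, and for up to 8 called members per strain comparison whose groups did not overlap; other members named were chosen after their values were seen. No 2 libraries of a group agreed within counting noise. The fit was tested on simulated data. Alternatives were RLE and total-size scaling, other filters, DESeq2 1.42.0, each library left out, the replicate number as a block, wider peak windows and, chosen after seeing the data, start windows and the DE RNA libraries split by depth. Results of 1 member are not reported here.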

Additional observations from a re-analysis of the deposited data

Results flagged for a closer look

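A library stood apart from the others of its group for 6 values, among 92 groups of 4 or 5 libraries examined; chance alone sets a library apart in about 1 of 20 groups. For RNA, Slc7a8 had 6.95 CPM in EpiSC replicate 51 against 17.0 to 18.2 in the other B6 EpiSCs, Slc38a2 had 162 CPM in DE replicate 2 against 355 to 379 in the other DE libraries, and Slc38a10 had 85.6 CPM in EpiSC replicate 1 against 116 to 124. For ATAC-seq, a peak near Slc6a8 had 12.7 CPM in EpiSC replicate 51 against 7.71 to 8.16, a peak near Slc7a5 had 17.3 CPM in DE replicate 51 against 5.87 to 7.57, and a peak near Slc43a2 had 14.0 CPM in DE replicate 2 against 6.63 to 6.87.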

How the results depend on the processing

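In B6 DE, RNA counts stayed at 7 to 8 members higher and 13 to 16 lower with 1 library left out. Of 13828 to 14460 genes tested in these fits, 4030 to 4561 were higher and 3827 to 4586 lower. Peak counts near members ran from 13 to 17 higher and 12 to 19 lower with 1 library left out. Of 121563 to 127301 peaks tested in those fits, 33748 to 40472 were higher and 29747 to 36781 lower. Total-size scaling gave 24 lower, against 36674 of all 113870 peaks. With at least 10 counts in every library 4 were higher and 5 lower, against 9868 and 8144 of all 44872 peaks. Counts were 81 and 51 in the gene or within 2 kb, 59 and 49 within 10 kb, and 2 and 4 on start windows. In PWK, RNA gave 3 to 5 higher and 8 to 12 lower with 1 library left out, and 2 and 4 at 2-fold or more; peaks gave 2 to 6 lower (a lone PWK library being assumed to vary like the others), 3 with at least 10 counts, 1 higher and 17 lower in the gene or within 2 kb, 1 and 14 within 10 kb, and 0 on start windows. In B6.129 F1, 1 member was higher with at least 10 counts, against 218 of all 12223 genes. DESeq2 gave 8 higher and 2 lower, against 878 and 1150 of all 20606 genes. With 1 library left out, 0 to 7 were higher and 0 to 1 lower, against 0 to 1001 and 0 to 951 of all genes. With 1 CPM added, 4 DBA peaks were past 2-fold lower, and the share of all peaks at this setting is not given here.

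The replicate number as a block gave 7 members higher and 12 lower in RNA, against 7 and 14 for the same paired libraries without it. Over all 13961 genes these counts were 3792 and 3939 with the block and 4171 and 4026 without. Near members 14 peaks were higher and 9 lower with the block, against 15 and 11 without. Over all 121694 peaks these counts were 32883 and 21504 with the block and 35207 and 26136 without. The RNA calls not made with the block were Slc1a4 (edgeR adjusted p 0.0544), Slc7a14 (0.117) and Slc1a2, which the filter left out of both paired fits. Same-numbered EpiSC and DE libraries correlated by 0.097, 0.121, 0.27 and 0.261 in RNA, each best with its own number, which is a hint of pairing in RNA, and by 0.034, 0.001 and 0.059 in ATAC-seq. Pairing was to be taken as given only with every pair over 0.1, which 3 of 4 RNA pairs and 0 of 3 ATAC pairs met, so the fits without the block were kept. With the block, Slc38a4 had a log2 change of -0.54.

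Members that were not called in DE changed sign near 0. With 1 library left out, the log2 change ran from -0.12 to 0.12 for Slc3a2, -0.34 to 0.027 for Slc1a5, -0.035 to 0.28 for Slc38a2, -0.12 to 0.29 for Slc38a9 and -0.046 to 0.72 for Slc38a4. Slc38a2 had -0.0088 with total-size scaling and -0.20 with the shallower DE pair, and Slc38a9 -0.18 with the deeper pair. The cause was not tested. Low counts limit Slc6a14, Slc1a2, Slc6a4 and peaks near 1 CPM.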
